A study of Drosophila melanogaster with 72 samples.

Results

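The U small nuclear RNAs (snRNAs) were read as all rows of the deposited tables whose gene name starts with snRNA:U, 30 of 16680 rows. They fall into 11 classes: 6 copies of U2, 5 of U1, 7 of U5, 3 each of U4 and U6, and 1 row each for U7, U11, U12, U3, U4atac and U6atac. RNA-seq of Drosophila melanogaster gave 72 libraries in 6 experiments, with 36 groups of 2 libraries each. Embryos were taken in windows of 0 to 0.5 h, 1 to 1.5 h and 2.5 to 3 h, here called the 0, 1 and 2.5 h windows, while larvae were 24, 48 and 72 h old, counted from egg laying.

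In 2 experiments WT embryos were set against mutants, labelled by the mislocalized subunit, IntS11 in the first and IntS9 in the other, at all 3 windows. In the knockdown experiment, labelled IntS11KD, KD embryos were set against their own WT at the same windows. In another, embryos labelled a_amanitin were set against Ctrl embryos at 1 and 2.5 h. A rescue experiment held WT embryos, embryos with mislocalized IntS11, and embryos labelled FlagIntS11WT or FlagIntS11E203Q, at 1 and 2.5 h. E203Q is an exchange in the active site of IntS11 known to abolish cleavage. In the larval experiment WT larvae were set against larvae labelled ZygoticMutant, whose gene the labels do not name. The labels give neither the driver of the knockdown or of the Flag transgenes nor the strain, and leave unsaid whether the replicates of a group came from separate collections, so p-values measure only the spread between these samples.

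The U snRNAs are the RNA cores of the spliceosome. U1 pairs with the 5′ splice site and U2 with the branch site, U4, U5 and U6 join as a tri-snRNP, and U11, U12, U4atac and U6atac take the same places in the minor spliceosome, which removes a rare class of introns. U7 serves in the 3′ end processing of histone mRNA, and U3 is a nucleolar RNA of ribosomal RNA processing that shares only the name. Most of these genes are read by RNA polymerase II, and the Integrator complex cuts the nascent transcript just after the snRNA. IntS11 is its endonuclease and IntS9 the partner with which IntS11 forms the cleavage module, while U6 and U6atac are made by RNA polymerase III. Where Integrator fails, snRNA transcripts in fly cells are known to run on past their 3′ end.

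Only 13 of the 30 rows held counts that could be compared, and all of them belong to U1, U2, U11 and U12. The other 17 rows never passed 5 expected counts in any library, and 11 of them were at 0 in all 72 libraries. The latter include U7, U6atac, U3 and every copy of U6. In 15 rows, the copies of U4, U5 and U6 with U6atac and U7, the deposited effective length, which is the length left for a fragment to start in, was 0 in every library. These RNAs are 148 nt or shorter, and their counts cannot be read as levels. U4atac, at 160 nt, reached at most 5 counts and was at 0 in 48 libraries.

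Among the rows with counts, near-identical copies were not told apart. U1:21D, U1:95Ca and U1:95Cb had equal counts in 72 of 72 libraries, as did U2:34ABb and U2:34ABc, while U2:38ABa and U2:38ABb were equal in 27 and never differed by more than 4.01 counts. The 13 rows therefore amount to 9 distinct count series, and results are given first as class sums, which do not depend on how shared reads were divided. Positions are those of the BDGP6 assembly. U11 (275 nt, chromosome 3L, 3893056 to 3893330, minus strand) had a median of 1346 counts per library, and U12 (238 nt, 3L, 16653769 to 16654006, plus strand) of 1074. The copies of U1 (164 nt) were left with an effective length of 1.61 to 4.92 nt, and no U1 copy passed 68.5 counts in a library. Levels are given as CPM on the TMM-adjusted library size and were not compared between classes, since the loss of short RNAs differs with length.

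Libraries held 2061575 to 26074431 expected counts (median 14898256.5), of which the U snRNAs took 0.0178% to 0.263% (median 0.0764%). Of the libraries of the knockdown experiment, WT held at most 2590455 counts and KD at least 10415095. As a check of the labels, IntS11 RNA differed from WT by -3.84, -4.07 and -2.76 on the log2 scale in KD embryos at 0, 1 and 2.5 h, and by -1.63, -1.37 and -2.15 in the mutant larvae at 24, 48 and 72 h. All larvae had 9350 CPM or more of a list of 5 larval genes (Lsp1beta, Lsp2, Mhc, Jon99Ci, Lcp3). Among embryos the highest sums of that list, 1232 and 1215 CPM, were in WT of the knockdown experiment at 2.5 h, where 2 of the 5 were at 0, and its KD embryos held 253 to 784 CPM. At 2.5 h the 5 blastoderm genes (ftz, eve, twi, sna, run) summed to 1.06 to 79.6 CPM in mislocalized embryos, 56.9 to 70.1 in KD embryos 1.31 to 1.52 in embryos with amanitin and 639 to 1273 in WT and control embryos. The part of this difference in zygotic genes in the results that follow was not tested, and in whole embryos fewer cells of a type and less RNA per cell cannot be told apart.

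Mislocalization of IntS11 went with lower U1, U2, U11 and U12, and in this line the deficit of U1, U2 and U12 was larger at 2.5 h than at egg laying. U2 RNA stood at 899 and 688 CPM in WT and at 437 and 472 CPM in the mutant at 0 h. At 1 h it was 1176 and 1016 against 294 and 310 CPM, and at 2.5 h 1937 and 1877 against 490 and 404 CPM. The groups did not overlap in any window. With 2 libraries per group this can also occur without a difference, and the share of all rows without overlap was not counted. The gap widened as WT rose while the mutant at 2.5 h stayed near its own level at 0 h. The log2 differences were -0.80 ± 0.12, -1.86 ± 0.12 and -2.09 ± 0.12 (SE, n = 2 libraries per group). U11, the minor counterpart of U1, had 226 and 186 CPM in WT against 63.6 and 88.1 CPM at 0 h, and 297 and 276 against 71.6 and 55.9 CPM at 2.5 h. Its log2 differences were -1.45 ± 0.16, -2.22 ± 0.17 and -2.17 ± 0.17. U12, the minor counterpart of U2, overlapped between the groups at 0 h, with 172 and 126 CPM in WT and 103 and 137 CPM in the mutant. By 2.5 h its levels, 284 and 243 against 94.4 and 77.9 CPM, were apart, and its differences were -0.32 ± 0.15, -1.34 ± 0.16 and -1.61 ± 0.16. U1 had few counts, with 6.98 and 5.75 CPM against 3.16 and 3.64 at 0 h and 10.3 and 9.90 against 1.88 and 1.42 CPM at 2.5 h. Its differences were -0.91 ± 0.21, -2.18 ± 0.22 and -2.61 ± 0.22. All but U12 at 0 h (adjusted p = 0.132) were called, with adjusted p up to 0.00408 (edgeR's quasi-likelihood test, Benjamini-Hochberg over all rows tested). U12 at 0 h was called without replicate 2 of the mutant or of WT, at -0.58 and -0.59, at -0.58 with effective length as an offset, which was added after seeing the data, at -0.38 without the filter on low counts and at -0.31 with only the groups compared.

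By copy, 8 of 13 rows were called lower at 0 h, beside 14.8% of all rows, 12 of 13 at 1 h, beside 24.6%, and 13 of 13 at 2.5 h, beside 53.2%. The median of the 13 rows was -0.70, -1.81 and -2.28, beside 0.00, -0.03 and -0.38 over all rows tested. At 2.5 h scaling by total counts instead of TMM moves the median of all rows by 0.36, so differences there are best read against -0.38. The difference grew from 0 to 2.5 h for U2 and U12, both by -1.29, for U1 by -1.70 and for U11 by -0.72 (adjusted p of the interaction up to 0.0116). With effective length as an offset these were -0.53 for U2, -0.69 for U12 and -0.81 for U1, still called, and without replicate 2 of WT at 0 h U2 and U12 grew by -0.80 and -0.77, as did U12 without replicate 2 of the mutant. For U11 the call was lost in 8 of 15 alternatives, all chosen after seeing the data. It was -0.33 with total counts and -0.17 to -0.66 without either WT library or replicate 2 of the mutant at 0 h, or replicate 1 of WT or replicate 2 of the mutant at 2.5 h.

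**Figure D1:**
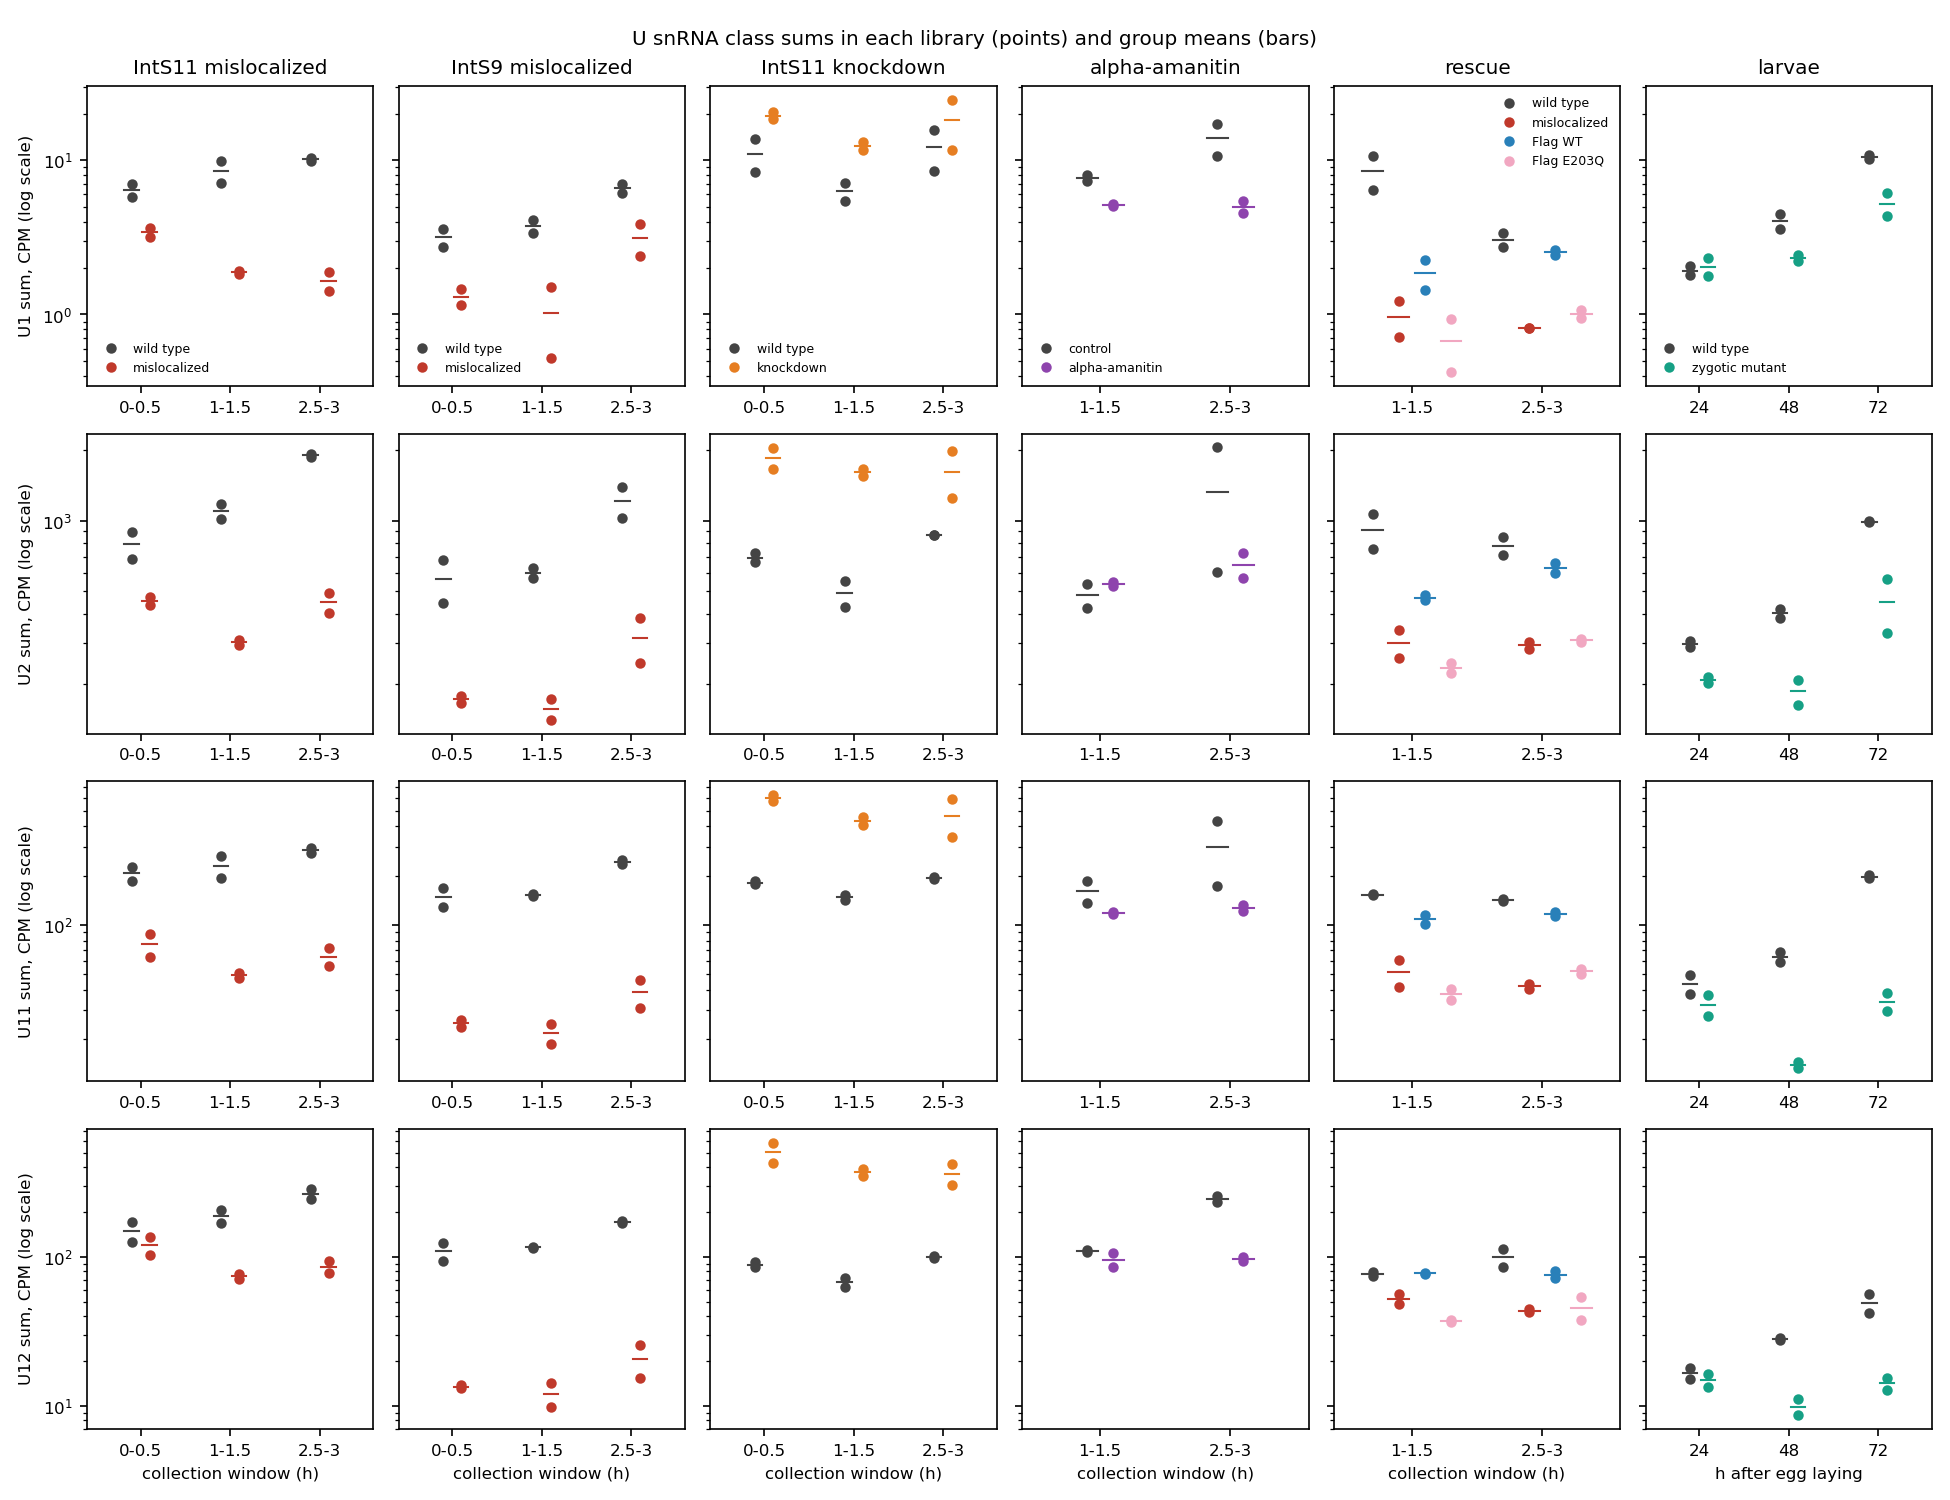
Levels of the U11, U12, U2 and U1 class sums in CPM (log axis) in every library, by experiment and window, with 1 point per library and short bars for group means. In both mislocalization experiments the mutant points lie under those of WT in every window except U12 at 0 h with mislocalized IntS11, and in the knockdown experiment those of U11, U12 and U2 lie above WT.

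Mislocalization of IntS9 went with the same 4 classes lower, and with U12 most of all. U12 had 124 and 93.8 CPM in WT against 13.2 and 13.8 CPM in the mutant at 0 h, and 173 and 168 against 25.5 and 15.5 CPM at 2.5 h. Its log2 differences were -3.01 ± 0.24, -3.24 ± 0.25 and -3.07 ± 0.23, which are 8.08, 9.44 and 8.40-fold. U11 went from 168 and 129 CPM in WT to 26.2 and 23.6 CPM at 0 h, and from 249 and 236 to 46.1 and 30.9 CPM at 2.5 h. These were differences of -2.57 ± 0.22, -2.79 ± 0.22 and -2.66 ± 0.21 for U11. For U2, WT had 678 and 446 CPM against 179 and 167 CPM at 0 h, and 1032 and 1393 against 385 and 247 CPM at 2.5 h. U2 differed by -1.70 ± 0.30, -1.93 ± 0.31 and -1.94 ± 0.30, and U1 by -1.27 ± 0.33, -1.80 ± 0.33 (-2.83 without replicate 2 of the mutant) and -1.09 ± 0.26. All 12 differences were called (adjusted p up to 0.00339, edgeR's quasi-likelihood test). No class overlapped between mutant and WT in any window. With 2 libraries per group this can also occur without a difference, and the share of all rows without overlap was not counted.

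Called lower in this line were 9 of 13 rows at 0 h, beside 26.5% of all rows, 12 of 13 at 1 h, beside 28.2%, and 12 of 13 at 2.5 h, beside 43.0%. None of the 4 class differences was shown to change from 0 to 2.5 h (adjusted p of the interaction 0.651 or more). Against the IntS11 line, the IntS9 line had U12 lower by a further -2.68, -1.89 and -1.66 at 0, 1 and 2.5 h (adjusted p = 4.45e-05, 0.000609 and 0.00102 in a joint fit). U11 was lower by a further -1.11 at 0 h (adjusted p = 0.0245), which was not called without replicate 2 of WT or mutant of the IntS11 experiment, or WT replicate 1 or mutant replicate 2 of the IntS9 experiment (-0.86 to -1.08). U2 was not shown to differ between the lines in any window (adjusted p = 0.0802, 0.941 and 0.930), and U1 at 2.5 h was less reduced in the IntS9 line, by 1.32 (adjusted p = 0.00819), or 0.97 and not called without replicate 1 of the IntS9 mutant. The lines have separate WT libraries, and a difference between the experiments in library making cannot be told apart from 1 between the lines.

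**Figure D2:**
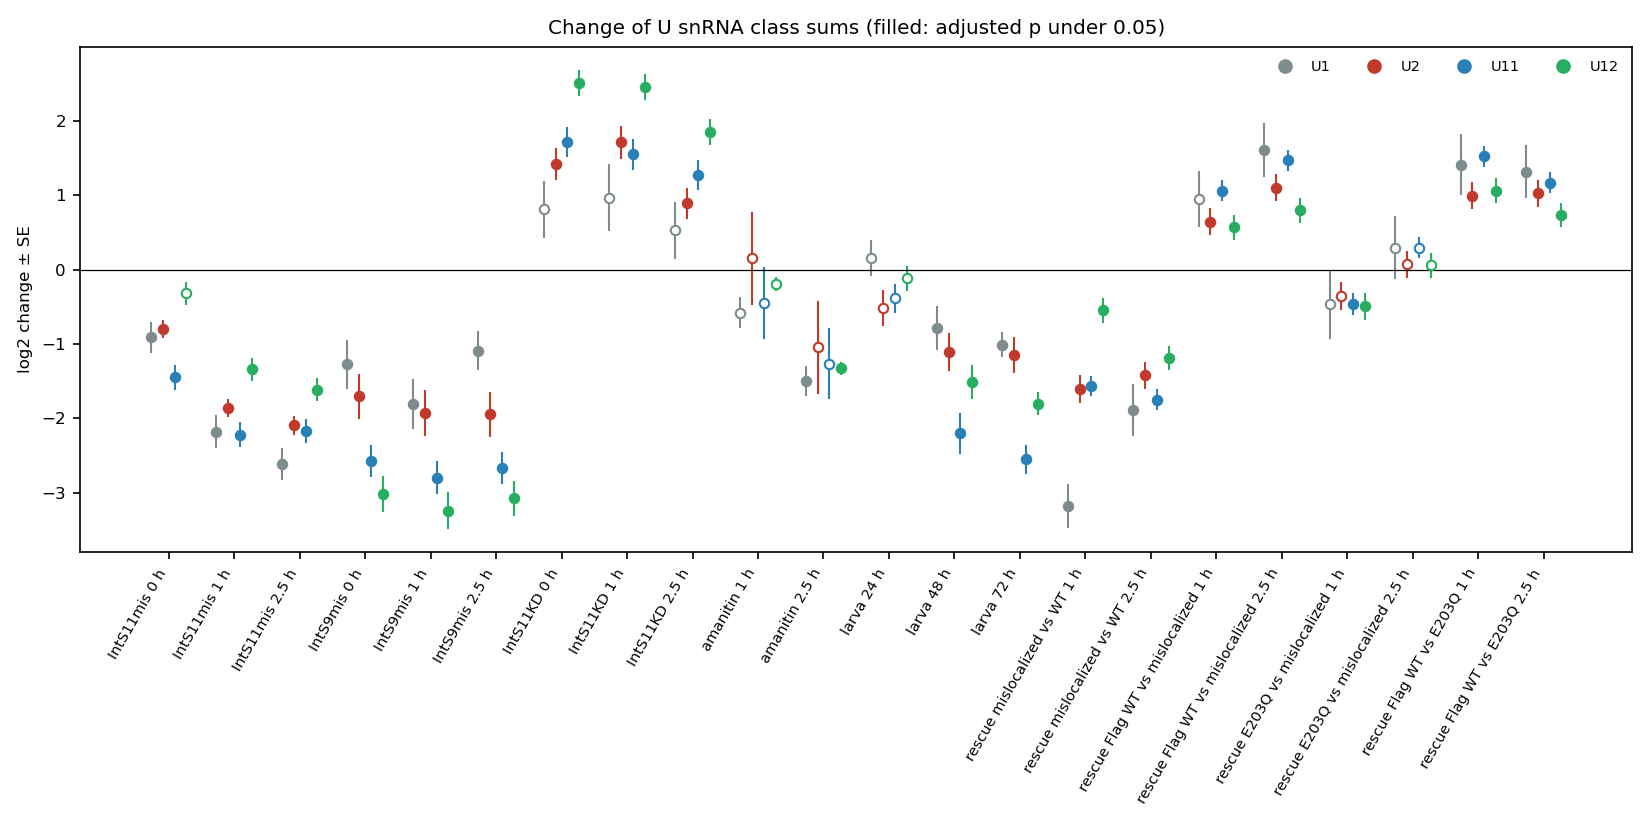
Log2 differences of the class sums from their own controls in each comparison, with bars of ± 1 SE, n = 2 libraries per group. U12 stands at -3.01 to -3.24 in the IntS9 line and at -0.32 to -1.61 in the IntS11 line, while U11, U12 and U2 lie above 0 in the knockdown.

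U2:34ABa, 1 of the 6 U2 copies (192 nt, 2L, 13211925 to 13212116, minus strand), held almost no counts in the mislocalized lines. In 26 WT and control embryo libraries it took 17.4% to 22.3% of all U2 counts, with a median of 18.6%. In the 16 libraries with mislocalized IntS11 or IntS9 it took 0.0183% to 1.18%, so the ranges lie far apart. Its level was 161 and 125 CPM in WT and 0.574 and 0.848 CPM with mislocalized IntS11 at 0 h, and 346 and 325 against 1.5 and 1.72 CPM at 2.5 h. This was 204, 254 and 208-fold lower at 0, 1 and 2.5 h (log2 -7.65 ± 0.20, -7.97 ± 0.19 and -7.69 ± 0.17, n = 2). In the IntS9 line 8 counts stood against 3593 at 0 h, 16 against 3610 at 1 h and 3 against 6642 at 2.5 h, over both libraries of each group. The last is a ratio of 2193, with a 95% interval of 750 to 10639 that covers counting error only. In the rescue experiment, whose libraries are separate, mislocalized IntS11 had U2:34ABa 485-fold lower at 1 h and 45.6-fold lower at 2.5 h.

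The other U2 copies moved much less in the same libraries. U2:14B (X, 16254672 to 16254863) differed by -0.71, -1.75 and -1.81 with mislocalized IntS11, U2:34ABb by -0.36, -1.45 and -1.67, and U2:38ABa by -0.84, -1.81 and -2.28. In the IntS9 line the same copies lay between -1.29 and -1.99. All of these were called (edgeR's quasi-likelihood test, adjusted p under the threshold of 0.05). Without U2:34ABa the U2 sum was still lower, by -0.52, -1.57 and -1.82 with mislocalized IntS11 and by -1.41, -1.63 and -1.66 with mislocalized IntS9, all called. Among U1 copies, U1:82Eb (median of 6.66 counts per library) differed by -2.56, -2.91 and -4.59 with mislocalized IntS11 and by -2.47, -3.28 and -3.69 with mislocalized IntS9, all called on few counts. Assigning reads to a copy depends on the few bases in which the copies differ, so a lower level of U2:34ABa and a sequence difference of that copy in the mislocalized lines cannot be told apart.

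Elsewhere the share of U2:34ABa was intermediate or as in WT. It was 10.4% to 11.3% in 4 libraries of Flag IntS11 WT, 12% to 13.7% in 4 of Flag IntS11 E203Q, 21.9% to 22.8% in 6 KD libraries and 17.6% to 18.3% in 4 libraries with amanitin. In larvae of either genotype it was 1.56% to 7.84% (12 libraries), and the pair U2:34ABb and U2:34ABc took 80.8% to 89.3% of U2 counts there, against 40.8% to 51.0% in WT and control embryos. In mislocalized embryos that pair took 62.2% to 66.5%.

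**Figure D3:**
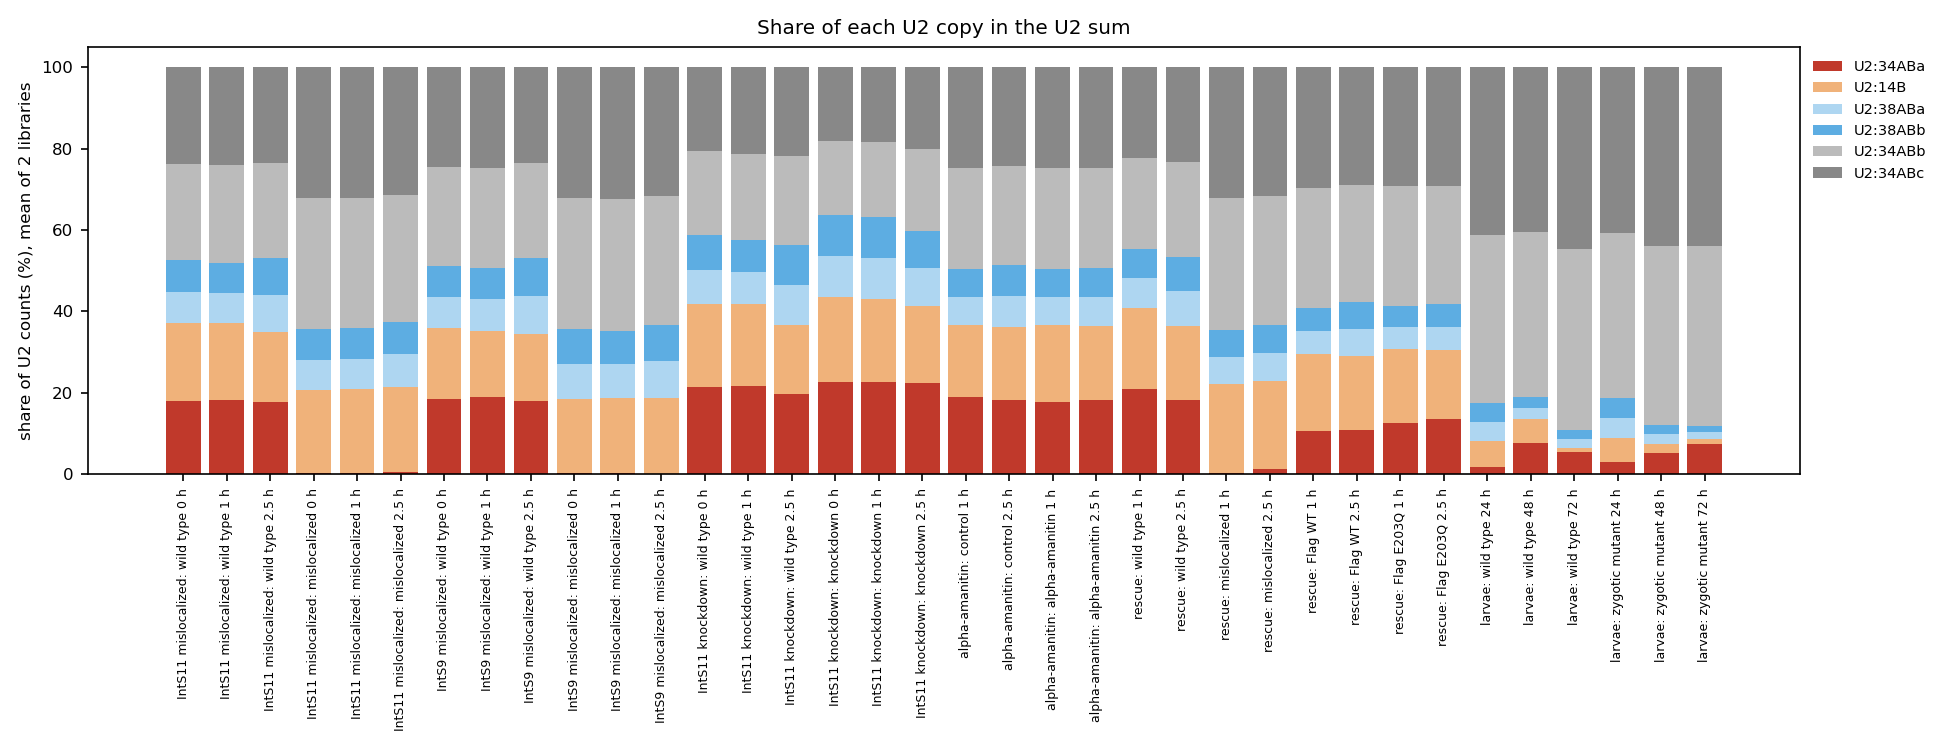
Share of all U2 counts, in percent, taken by each U2 copy or pair of copies in every group, as the mean of 2 libraries. U2:34ABa, at 17.4% to 22.3% in WT and control embryos, is nearly missing from mislocalized embryos and holds 10.4% to 13.7% in both Flag lines.

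In IntS11 knockdown embryos the direction was the opposite: U11, U12 and U2 were higher than in WT. U12 had 92.3 and 85.1 CPM in WT against 584 and 427 CPM in KD at 0 h, 62.9 and 71.9 against 351 and 389 CPM at 1 h, and 98.7 and 101 against 301 and 421 CPM at 2.5 h. U11 went from 177 and 185 to 624 and 570 CPM at 0 h, and from 195 and 190 to 346 and 586 CPM at 2.5 h. For U2, WT had 665 and 725 CPM against 2055 and 1672 CPM at 0 h, and 872 and 871 against 1251 and 1984 CPM at 2.5 h. No values of these 3 classes overlapped between the groups, and the share of all rows without overlap was not counted. The log2 differences at 0, 1 and 2.5 h were 2.51 ± 0.18, 2.46 ± 0.18 and 1.85 ± 0.17 for U12, 1.72 ± 0.20, 1.55 ± 0.21 and 1.27 ± 0.20 for U11, and 1.42 ± 0.21, 1.71 ± 0.22 and 0.89 ± 0.21 for U2. All 9 were called (adjusted p up to 0.00452), and U1 was not, at 0.81 ± 0.39, 0.97 ± 0.45 and 0.53 ± 0.38 (adjusted p = 0.0788, 0.0686 and 0.222, edgeR's quasi-likelihood test). U1 was called higher at 0 h in 3 and at 1 h in 4 of its alternatives, DESeq2 among the latter (adjusted p = 0.0383), and at 2.5 h without the filter on low counts. Its value at 2.5 h rests on single KD libraries, at 0.96 and called without replicate 1 and -0.11 without replicate 2. Without that replicate 2, U2 and U11 at 2.5 h were 0.51 and 0.83, still called. The rise of U12 was smaller at 2.5 h than at 0 h, by -0.66 (adjusted p of the interaction 0.0350). Scaled by total counts this was -0.39 and not called (adjusted p = 0.0813), and it was not called without KD replicate 1 or either WT replicate at 0 h, or without replicate 1 of KD or WT at 2.5 h (-0.42 to -0.73).

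Called higher were 9 of 12 rows tested at 0 h, beside 39.5% of all rows, 8 of 12 at 1 h, beside 41.7%, and 8 of 12 at 2.5 h, beside 39.7%. Scaling by total counts moves the median of all rows by -0.62, -0.44 and -0.35, and the 9 class differences stayed above 0 and called, at 1.87, 2.00 and 1.48 for U12, 1.08, 1.09 and 0.89 for U11, and 0.78, 1.25 and 0.51 for U2. Other short noncoding RNAs rose in the same libraries. The signal recognition particle RNA 7SL differed by 2.89, 2.71 and 1.81 and took 15.7% to 25.5% of all counts in KD libraries against 4.14% to 7.02% in WT. RNase P RNA differed by 3.00, 2.38 and 1.99, RNase MRP RNA by 1.94, 1.82 and 1.21, and 7SK by 2.47, 2.28 and 1.20, all called. The part of a general rise of short RNAs, of the difference in depth, or of the larval genes found in this experiment was not tested. Under both lines of mislocalized subunits 7SL lay between -0.76 and 0.25 while RNase P RNA rose by 1.26 to 2.30. With mislocalized IntS11 7SL was called lower at 1 and 2.5 h. RNase MRP RNA differed by -0.23, -1.06 and -1.20 there, called at 1 and 2.5 h, and was not called with mislocalized IntS9. 7SK differed by 0.62, -0.20 and -0.71 with mislocalized IntS11, called at 0 and 2.5 h. With mislocalized IntS9 it differed by -0.03, -0.22 and -0.49, called at 1 and 2.5 h. The part of short RNAs in general in the lower snRNAs was not tested.

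The rescue experiment set Flag-tagged IntS11 WT and E203Q beside mislocalized IntS11, and its comparisons share groups, so their values are given side by side and not as independent results. Mislocalized IntS11 again had the 4 classes lower. U11 stood at 153 and 153 CPM in WT, 41.8 and 61.2 CPM with mislocalized IntS11, 101 and 116 CPM with Flag IntS11 WT, and 34.6 and 40.2 CPM with Flag IntS11 E203Q at 1 h. At 2.5 h the same order gave 143 and 139, 40.5 and 43.6, 114 and 119, and 49.6 and 53.9 CPM. Flag IntS11 WT thus lay between the mislocalized line and WT in both windows, and E203Q below all the others at 1 h. U2 at 2.5 h had 715 and 852 CPM in WT, 304 and 282 CPM with mislocalized IntS11, 599 and 657 CPM with Flag IntS11 WT, and 312 and 304 CPM with E203Q. U12 at 2.5 h had 85 and 113, 44.6 and 42.8, 71.9 and 80.0, and 37.9 and 53.6 CPM in the same order.

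At 2.5 h, mislocalized against WT gave log2 differences of -1.75 ± 0.14 for U11, -1.18 ± 0.16 for U12, -1.42 ± 0.18 for U2 and -1.89 ± 0.35 for U1. Flag IntS11 WT against mislocalized gave 1.47 ± 0.14, 0.80 ± 0.17, 1.10 ± 0.18 and 1.61 ± 0.36, all called (adjusted p up to 0.00119). Flag IntS11 E203Q against mislocalized gave 0.30 ± 0.15, 0.06 ± 0.17, 0.07 ± 0.18 and 0.30 ± 0.42, none called (adjusted p 0.107 to 0.790). The U11 value was called, at nearly the same size, in DESeq2 (adjusted p = 0.0304), without the filter (0.0317), with only the groups compared (8.72e-05) and with the replicate number as a block (0.0237). The Flag lines differed from each other by 1.17 ± 0.14, 0.74 ± 0.17, 1.03 ± 0.18 and 1.32 ± 0.36, all called (adjusted p up to 0.00224). IntS11 RNA itself was 3.74 higher on the log2 scale with Flag IntS11 WT and 3.82 higher with E203Q than in the mislocalized line.

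At 1 h the Flag lines differed by 1.52 ± 0.14 for U11, 1.06 ± 0.17 for U12, 1.00 ± 0.18 for U2 and 1.41 ± 0.41 for U1 (adjusted p up to 0.00802). Flag IntS11 WT lay above the mislocalized line by 1.06 ± 0.14 for U11 (adjusted p = 0.000133). For U12 and U2 it lay above by 0.57 ± 0.16 and 0.64 ± 0.18 (adjusted p = 0.0295 and 0.0334). The U12 call was lost with any 1 of the 4 libraries left out, at 0.46 to 0.68, and that of U2 without either Flag library or replicate 1 of the mislocalized line, at 0.45 to 0.68. Without U2:34ABa the U2 sum differed by 0.48 (adjusted p = 0.0929, not called), and that of E203Q against the mislocalized line by -0.54 (adjusted p = 0.0427), where with all copies it was -0.35 and not called. E203Q lay below it by -0.46 ± 0.15 for U11 and -0.49 ± 0.18 for U12 (adjusted p = 0.0287 and 0.0439), and the U12 call was lost with any library left out, at -0.39 to -0.60. The U11 call was lost without replicate 1 of E203Q or replicate 2 of the mislocalized line, at -0.36 and -0.16, and without replicate 1 of the latter it was -0.71. U12 with mislocalized IntS11 against WT, -0.55 ± 0.17, became -0.13 and was not called with effective length as an offset. It was also not called without either WT library or replicate 2 of the mislocalized line, at -0.44 to -0.59. The U1 difference between the Flag lines was not called without replicate 1 of either, at 0.99 and 1.04.

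By copy, mislocalized IntS11 had 12 of 12 rows tested lower than WT at 1 h, beside 18.7% of all rows, and 12 of 12 at 2.5 h, beside 41.1%. Flag IntS11 WT had 4 of 12 higher than the mislocalized line at 1 h, beside 10.2% and with 2 to 4 when 1 library is left out, and 12 of 12 at 2.5 h, beside 39.1%. With E203Q, 1 row was higher and 4 lower than in the mislocalized line at 1 h, beside 17.2% and 26.5% of all rows and with 1 to 7 called when 1 library is left out, and 1 was higher at 2.5 h, beside 25.5%. Flag IntS11 WT had 8 of 12 rows above E203Q in each window, beside 26.2% and 37.7%. The row higher with E203Q was U2:34ABa in both windows. It had 0.256 and 0.535 CPM with mislocalized IntS11, 26.8 and 31.8 CPM with E203Q and 50.1 and 49.8 CPM with Flag IntS11 WT at 1 h, against 161 and 220 CPM in WT. At 2.5 h these were 3.00 and 3.32, 40.8 and 41.7, 62.1 and 74.5, and 128 and 159 CPM. Both Flag lines thus held this copy where the mislocalized line had nearly none, at log2 differences of 6.93 ± 0.39 and 4.43 ± 0.25 for Flag IntS11 WT and 6.17 ± 0.43 and 3.70 ± 0.26 for E203Q, while the U2 sum at 2.5 h was called higher with Flag IntS11 WT and not with E203Q.

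Alpha-amanitin blocks RNA polymerase II, so treated embryos were set against controls to ask how far snRNA levels differ when transcription in the embryo is stopped. At 1 h no row was called (0 of 13, beside 33.5% of all rows in either direction, with 3 at an unadjusted p under 0.05, edgeR's quasi-likelihood test). The class sums differed by -0.58 for U1 (adjusted p = 0.0510), 0.16 for U2, -0.45 for U11 and -0.19 for U12, none called. U1 was called, at -0.57 to -0.61, with total counts, no filter, only the groups compared and the replicate number as a block. Without the filter U11 and U12 were called too, and U12 was -0.36 without replicate 1 of amanitin. At 2.5 h U12 had 233 and 255 CPM in controls against 94.3 and 101 CPM in treated embryos, a difference of -1.32 ± 0.09 (adjusted p = 2.78e-08). U1 was lower too, by -1.5 ± 0.20 (adjusted p = 1.04e-05). Other short RNAs were also lower: RNase MRP RNA by -1.72, 7SK by -1.16 and RNase P RNA by -1.10, all called, and 7SL by -0.68, not called. The effective length of U12 was 40.73 and 38.97 nt in controls and 32.95 and 32.9 nt in treated embryos. Both calls, of U12 and U1, were kept in all 9 alternatives, effective length as an offset among them. U12 is a single row, so reading the most abundant copy alone could not alter its counts. Leaving U2:34ABa out of the U2 sum altered the counts of neither class. The part of short RNAs in general was not tested. Called lower were 5 of 13 rows, beside 49.7% of all rows, and 12 without replicate 2 of the controls. For U2 and U11 the control libraries were far apart. U2 had 2061 and 602 CPM in controls against 568 and 728 CPM, and U11 430 and 172 CPM against 122 and 131 CPM. The differences, -1.04 ± 0.63 and -1.26 ± 0.48, were not called (adjusted p = 0.180 and 0.0619). Without replicate 2 of the controls they became -1.66 and -1.76 and were called, and without replicate 1 they were 0.11 and -0.44.

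In treated embryos no row was called from 1 to 2.5 h (0 of 13, 0 at an unadjusted p under 0.05, beside 2.84% of all rows in either direction). With so small a share over all rows, 0 of 13 does not show that these RNAs were unchanged. Without the filter on low counts 6 rows were called, and so was the U2 sum, at 0.28. In untreated embryos U12 rose over that interval in each experiment, by 1.16 ± 0.09 in controls of the amanitin experiment and by 0.49 ± 0.15, 0.56 ± 0.19, 0.57 ± 0.20 and 0.38 ± 0.16 in WT of the IntS11, IntS9, knockdown and rescue experiments. The U12 calls in these WT groups were lost without 2, 4, 3 and 3 of the 4 libraries in turn, at 0.14 to 0.58, and that of the amanitin controls was kept. U2 rose by 0.80 ± 0.12, 1.02 ± 0.29 and 0.83 ± 0.22 in WT of the IntS11, IntS9 and knockdown experiments, of which the call in the IntS9 experiment was lost without either library at 1 h or without replicate 2 at 2.5 h, at 0.75 to 1.08. In WT of the rescue experiment it did not, at -0.22 ± 0.18 (adjusted p = 0.273). That value turned to 0.40 with effective length as an offset (adjusted p = 0.0205), the effective length of U2 having been 13.4 and 17.8 nt in the libraries at 1 h and 10.6 and 9.65 nt at 2.5 h. In controls of the amanitin experiment U2 changed by 1.48, not called (adjusted p = 0.0847, edgeR). U1 changed by -1.51 in WT of the rescue experiment (adjusted p = 4.72e-06, edgeR). It rose by 0.82 in WT of the IntS9 experiment and by 0.88 in controls of the amanitin experiment, both called. In WT of the IntS11 and knockdown experiments U1 changed by 0.25 and 0.98, not called. Called higher from 1 to 2.5 h were 7 of 13 rows in the IntS11 experiment, beside 43.5% of all rows, 11 of 13 in the IntS9 experiment, beside 41.7%, and 7 of 12 in the knockdown experiment, beside 40.8%. Controls of the amanitin experiment had 5 of 13, beside 50.5%. WT of the rescue experiment had 1 of 12 higher and 4 lower, beside 43.1% and 41.8%. These counts rest on few libraries: leaving out 1 library gave 2 to 9 called in the IntS9, 2 to 7 in the knockdown, 1 to 12 in the amanitin and 3 to 8 in the rescue experiment.

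From 0 to 1 h, U2 rose by 0.47 ± 0.12 in WT of the IntS11 experiment, where 6 of 13 rows were called higher, beside 15.5% of all rows. Without replicate 2 at 0 h or replicate 1 at 1 h the U2 value was 0.23 or 0.36 and not called, and 1 row was called. In the IntS9 and knockdown experiments no row was called, at 0 of 13 and 0 of 12, beside 41.2% and 1.68% of all rows in either direction, with 0 and 3 at an unadjusted p under 0.05 (edgeR), and the U2 sum differed by 0.09 ± 0.29 and -0.50 ± 0.22.

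In mutant larvae no U snRNA class was called different at 24 h, and all 4 were called lower at 48 and 72 h. U11 had 49.5 and 37.5 CPM in WT against 37.3 and 27.5 CPM in mutants at 24 h, which did not overlap but was not called. At 48 h it had 58.9 and 68.1 against 13.3 and 14.4 CPM, and at 72 h 193 and 201 against 29.5 and 37.9 CPM. U11 rose over these ages in WT and stood at 72 h in mutants near its level at 24 h, with log2 differences of -0.39 ± 0.20, -2.20 ± 0.27 and -2.55 ± 0.19. U12 had 42.1 and 56.6 CPM against 12.9 and 15.4 CPM at 72 h, with differences of -0.12 ± 0.17, -1.51 ± 0.23 and -1.80 ± 0.16. U2 had 987 and 997 CPM against 331 and 565 CPM at 72 h, with differences of -0.51 ± 0.25, -1.11 ± 0.26 and -1.15 ± 0.24, and U1 differed by 0.16 ± 0.25, -0.79 ± 0.29 and -1.01 ± 0.17. The adjusted p was at most 0.0482 at 48 and 72 h and 0.316 or more at 24 h (edgeR's quasi-likelihood test). The U1 call at 48 h was lost in 6 of 9 alternatives, with adjusted p of 0.163 in DESeq2 and 0.0555 with total counts. Fitting the groups compared alone, U2 was called at 24 h (-0.50) and not at 72 h (adjusted p = 0.109). The call of U2 at 48 h was lost with any 1 of the 4 libraries left out, at -0.95 to -1.30, and that of U1 without replicate 2 of WT or either mutant library, at -0.63 to -0.86.

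From 24 to 72 h the difference grew by -2.16 for U11, -1.69 for U12 and -1.17 for U1 (adjusted p of the interaction up to 0.00322), and that of U2, by -0.64, was not called (adjusted p = 0.195). By copy, 0 of 11 rows were called at 24 h (0 at an unadjusted p under 0.05, beside 9.97% of all rows in either direction), 6 of 11 lower at 48 h, beside 13.8% and with 3 to 4 when 1 library is left out, and 10 of 11 lower at 72 h, beside 30.6%. At 48 h U2:14B had 0 and 33 counts in the mutant libraries and differed by -2.82 on the log2 scale. In WT larvae 6 of 11 rows rose from 24 to 48 h, beside 32.8%, and 10 of 11 from 48 to 72 h, beside 27.9%. U11 rose 1.46 and 3.11-fold over these steps, and its first rise was not called without replicate 2 at 24 h or either library at 48 h (log2 0.35 to 0.64). Without replicate 2 at 24 h or at 48 h, 3 or 2 rows were called in the first step.

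Genes on the same strand just after a U snRNA, where a transcript that is not cut would run, were read from the current annotation. Within 2 kb there were 5: CG15482, 111 nt after U2:34ABa; CG13962, 1082 nt after U2:38ABa; CG16820, 1258 nt after U5:34A; ND-B17, 479 nt after U5:35D; and the noncoding CR45422, 1093 nt after U11. CR45422 never passed 0.705 CPM and was not tested. ND-B17, a subunit of respiratory complex I, changed its direction with the scaling and is given none.

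CG15482 (2L, 13210773 to 13211814, minus strand) was near 0 in WT and rose in both mislocalization lines, the knockdown and the mutant larvae. It had 0 to 3.28 CPM in 26 WT and control embryo libraries, 167 to 447 CPM in the 16 mislocalized libraries, 157 to 192 CPM in the 6 KD libraries and 414 to 659 CPM in the 4 E203Q libraries. Flag IntS11 WT held 4.22 to 14.8 CPM and amanitin 0.0543 to 1.36 CPM. All mislocalized, KD and E203Q libraries lay above all WT, control, Flag IntS11 WT and amanitin libraries. The log2 differences were 8.47 ± 0.17, 7.54 ± 0.15 and 6.40 ± 0.13 with mislocalized IntS11 and 10.32 ± 0.11, 9.55 ± 0.11 and 7.53 ± 0.09 with mislocalized IntS9. In KD at 0 h, against 0 counts in WT, it was at least 353-fold higher, taking 3 counts over the group as the floor, and at 1 and 2.5 h it was 7.77 ± 0.25 and 6.38 ± 0.22 higher. Against the mislocalized line it was -5.16 ± 0.09 and -4.04 ± 0.07 with Flag IntS11 WT and 1.26 ± 0.06 and 1.43 ± 0.05 with E203Q. In mutant larvae the differences were 1.92 ± 0.21, 6.50 ± 0.18 and 5.27 ± 0.09 at 24, 48 and 72 h, all called (edgeR's quasi-likelihood test, adjusted p up to 2.67e-06 for the gene in these comparisons). Beside these rises, U2:34ABa differed by 1.5, 1.77 and 1.08 in KD and by 0.28, -1.69 and -0.69 in larvae, the last being -0.39 or -1.06 without replicate 1 or 2 of the mutant.

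**Figure D4:**
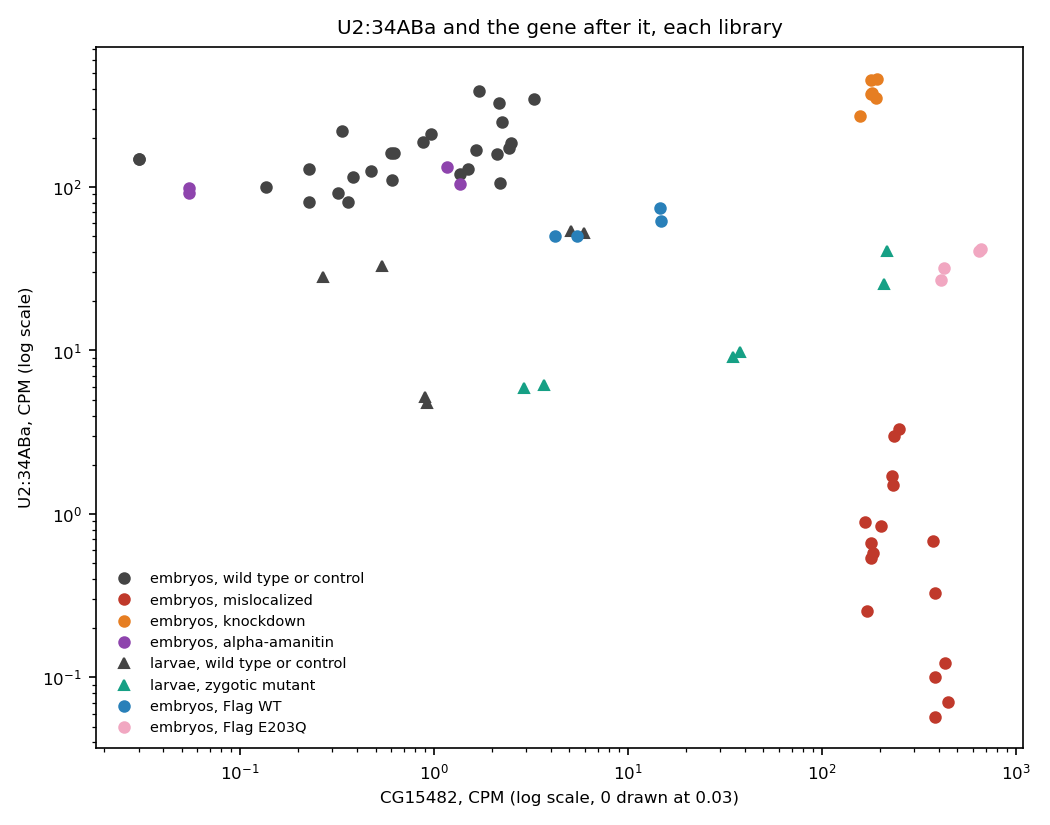
Level of U2:34ABa (y axis, CPM, log scale) against CG15482, the gene 111 nt after it (x axis, CPM, log scale), with 1 point per library and colours by kind of library. Mislocalized libraries sit high in CG15482 and low in U2:34ABa, and KD libraries are high in both. E203Q libraries are high in CG15482, with U2:34ABa between the mislocalized line and WT of the rescue experiment. WT and control embryos are at 3.28 CPM or less in CG15482.

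The other neighbours tested had low counts. CG13962 was at 0 in WT of the IntS11 experiment and was at least 29.0, 30.4 and 31.3-fold higher in the mutant, where it reached 3.31 to 4.58 CPM. CG16820 went from at most 0.239 CPM in WT at 0 and 1 h to 5.42 to 7.05 CPM in that line. Its differences were 6.93 ± 0.53, 5.82 ± 0.42 and 1.92 ± 0.21 there, 6.64 ± 0.33, 7.45 ± 0.37 and 3.29 ± 0.19 in the IntS9 line, and 4.94 ± 0.76, 4.22 ± 0.64 and 1.89 ± 0.37 in the knockdown. With amanitin at 2.5 h CG16820 fell by 4.32 ± 0.51. WT larvae held 10.4 to 20.9 CPM of CG13962 and 4.85 to 16.9 CPM of CG16820, so both genes are also expressed without a mislocalized or depleted subunit. The part of larval RNA in the embryo libraries was not tested. CG15482, CG13962 and CG16820 were each called higher in every window of both mislocalization lines and of the knockdown. Of all rows, 16.8%, 22.7% and 30.1% were called higher with mislocalized IntS11 26%, 31.3% and 40.4% with mislocalized IntS9, and 39.5%, 41.7% and 39.7% in the knockdown. Against WT libraries with few or no counts the size of the CG16820 difference rests on single libraries: it was 9.55 without WT replicate 2 of the IntS11 experiment at 1 h, and 8.33 and 8.44 in the knockdown without WT replicate 1 at 0 h or replicate 2 at 1 h.

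Several U snRNA genes lie between exons of a longer gene on the same strand, and 7 such host genes were tested, a list drawn up after values had been seen. Atg18b, an autophagy gene whose rise in these lines was already known, holds U4:39B (2L, 21215036 to 21215178, minus strand) 389 nt before its next exon. It had 10.6 to 22.0 CPM in WT and control embryos, 117 to 688 CPM in mislocalized embryos, 50.2 to 136 CPM in KD, 17 to 20.3 CPM with Flag IntS11 WT and 303 to 358 CPM with E203Q. FASN2, a fatty acid synthase listed in the files as v(2)k05816, holds U5:23D (2L, 3048701 to 3048831, plus strand) 561 nt before its next exon. The row of FASN2 rose from at most 3.08 CPM in WT and control embryos to 13.7 to 57.9 CPM in mislocalized and 12.9 to 94.5 CPM in KD embryos, with 1.43 to 3.70 CPM in Flag IntS11 WT and 36.9 to 59.1 CPM in E203Q. CG34355, with U1:95Cb and U1:95Cc in 1 intron, differed by 5.59, 4.65 and 2.88 with mislocalized IntS11, by 6.58, 6.25 and 6.54 with mislocalized IntS9 and by 3.83, 4.29 and -0.04 in KD, the last not called. Its values at 1 h were 8.39 without WT replicate 1 of the IntS11 experiment and 9.47 without WT replicate 2 of the knockdown. In WT of the knockdown experiment at 2.5 h it had 13.2 and 15.4 CPM, beside the larval genes in those libraries. WT larvae held 19.8 to 65.1 CPM of CG34355, 58.6 to 78.0 CPM of FASN2 and 5.51 to 37.8 CPM of Atg18b.

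Eip63E, a cyclin-dependent kinase gene that holds U7 (3L, 3593823 to 3593893, plus strand) 758 nt before its next exon, was well expressed in WT and rose less. It differed by 1.25 ± 0.10, 1.44 ± 0.10 and 1.86 ± 0.10 with mislocalized IntS11, by 2.50 ± 0.07, 2.04 ± 0.06 and 2.63 ± 0.06 with mislocalized IntS9, and by 1.69 ± 0.11, 2.14 ± 0.11 and 2.00 ± 0.11 in KD. Of the remaining hosts, sick, in which the next exon lies 9934 to 15599 nt on, had no more than 10.6 CPM in mislocalized embryos, cno changed its direction with the scaling, and Esyt2, host of the polymerase III gene U6:96Aa, had at most 0.865 CPM in mislocalized embryos. Over the 7 hosts, 4, 5 and 4 were called higher and 2, 1 and 3 lower with mislocalized IntS11, and 4, 5 and 4 higher and 0, 1 and 2 lower with mislocalized IntS9. In KD they were 4, 5 and 3 higher and 1, 1 and 3 lower. Beside these stand 14.8%, 24.6% and 53.2% of all rows lower with mislocalized IntS11, 26.5%, 28.2% and 43.0% with mislocalized IntS9 and 29.6%, 31.0% and 36.0% in KD, with the shares higher as given above. The counts include cno, which has no direction of its own.

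Lists of other genes nearby, also chosen after values had been seen, were called in both directions, and their counts stand against the same shares of all rows. Of 7 genes tested on the same strand before a member, 1, 1 and 2 were called higher and 1, 1 and 4 lower with mislocalized IntS11. Of 5 on the opposite strand after a member, 1, 3 and 2 were higher and 1, 2 and 1 lower. On that list stands the larval gene Lsp1beta, which rose by 6.54 at 0 h. Of the genes first met after a member on its own strand at any distance, leaving out the neighbours and hosts above, 5 were tested, with 1, 1 and 1 higher and 3, 3 and 4 lower. With mislocalized IntS9 these 3 lists had 2, 1 and 2 higher and 1, 2 and 4 lower of 7, then 2, 2 and 3 higher and 3, 2 and 1 lower of 5, and 3, 3 and 3 higher and 3, 3 and 4 lower of 8. Only 2 genes that overlap a member on the opposite strand were tested, with 0, 0 and 1 higher and 1, 2 and 1 lower under mislocalized IntS11. The median of the genes before a member was -0.18, -0.04 and -0.37, beside 7.70, 6.68 and 4.16 for the neighbours within 2 kb after it. Genes within the lists differ in level, so the medians are descriptions.

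**Figure D5:**
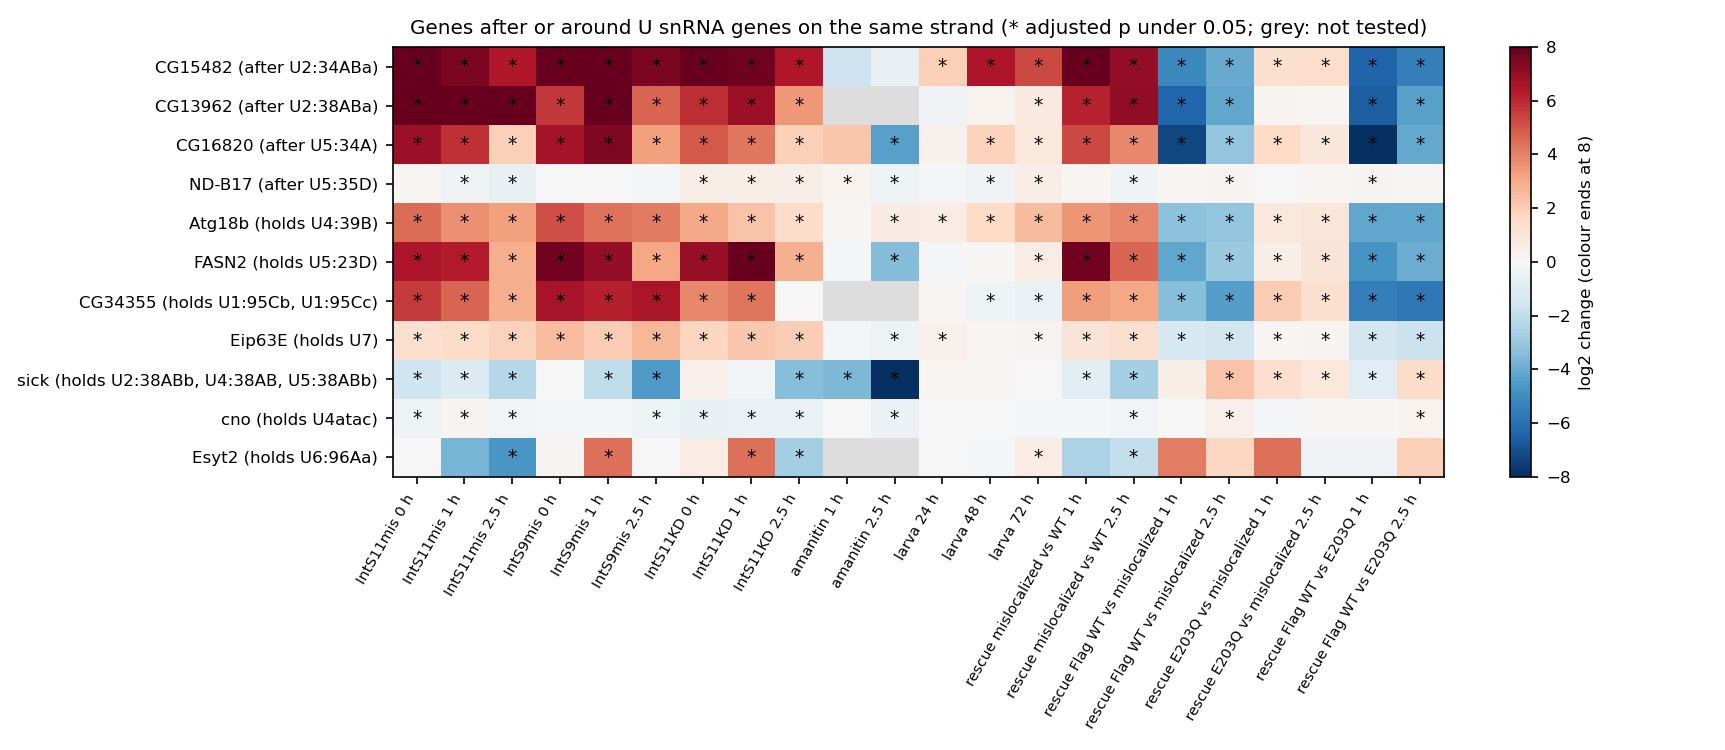
Log2 differences of the genes after or around a U snRNA on its own strand, by comparison. CG15482, CG13962, CG16820, Atg18b and FASN2 are above 0 in both mislocalization lines and the knockdown at every window, and under 0 where Flag IntS11 WT is set against the mislocalized line.

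Messenger RNAs of snRNP proteins were read from lists of genes. Of 13 spliceosomal snRNP protein genes tested, 1 was called higher and 3 lower with mislocalized IntS11 at 0 h, and 0 higher and 12 lower at 2.5 h (beside 14.8% and 53.2% of all rows lower), with a median of -0.61 beside -0.38 over all rows. The 2 with the largest falls there were hoip, a protein of the U4 snRNP, at -3.54, and U2A, a protein of the U2 snRNP, at -3.42. In the IntS9 line at 2.5 h they were at -5.59 and -5.85, with 2 genes of the list higher and 8 lower, beside 40.4% and 43.0% of all rows. With amanitin at 2.5 h the list had 4 higher and 9 lower, beside 49.7% of all rows lower, with a median of -0.59 beside -0.23. From 1 to 2.5 h its median was 0.62 in WT of both mislocalization experiments and 0.77 in amanitin controls. In WT of the knockdown and rescue experiments it was 0.22 and 0.46, beside 0.05 to 0.27 over all rows in these 5 groups. Sm and LSm protein genes, whose rings hold the snRNAs, had 1 higher and 9 lower of 13 with mislocalized IntS11 at 2.5 h (median -0.50), with Lsm11, a ring protein of the U7 snRNP, higher at 1.14. Of 10 genes for snRNP assembly and transport, 2 were higher and 5 lower. Tgs1, the enzyme that methylates the snRNA cap to its trimethyl form, was at -2.79, Snup, the import adaptor, at -2.55 and rig, the fly Gemin5, at 2.00. Of 6 genes for snRNA transcription 1 was higher and 4 lower, with Pbp95 at 1.41 and Pbp45, both subunits of the snRNA promoter factor, at -0.78. In KD embryos at 2.5 h 6 of 13 snRNP protein genes were higher and 3 lower, beside 39.7% and 36.0% of all rows. In mutant larvae at 72 h Sm and LSm genes had 0 higher and 8 lower of 13 (median -0.36), beside 30.6% of all rows lower.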

How the data were processed

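Total RNA was extracted with TRIzol, depleted of rRNA and made into strand-specific libraries, per the labels' protocols. The build dm6 and the tools RSEM 1.3.1, STAR 2.7.10a, DESeq2 1.40.2 and Trimmomatic 0.39 were used by the authors, per the submitters' processing notes, which give them no role or order. Not given in the sources used here are the settings of RSEM for strand and for reads shared by copies. For each library the authors deposited expected counts per gene, TPM, FPKM and the gene's length and effective length. TPM and FPKM were not used for tests, since a row with an effective length near 0 has no usable value per length.

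Expected counts were rounded to whole numbers and tested with edgeR 4.0.16 in R 4.3.3 (quasi-likelihood test, TMM scaling), with all groups of an experiment in 1 fit and p-values adjusted by Benjamini-Hochberg over all rows tested. Rows passed filterByExpr at a minimum count of 10, and class sums were fitted as rows in place of their copies. An adjusted p under 0.05 is a call. In all, 33 comparisons were made, 22 between lines or treatments and 11 over time, with 2 libraries per group, and changes of an effect were tested as interactions. Alternatives were DESeq2 1.42.0, other scalings, no filter, fits of the groups compared alone, the replicate number as a block and each library left out. For classes the most abundant copy alone was also fitted. An effective length offset, the U2 sum without U2:34ABa, the joint fit of both mislocalized lines, the share of U2:34ABa, the alternatives for interactions and the host and comparison lists were added after seeing the data. On simulated counts with known folds, the test recovered 53.7%, 82.1% and 92.4% of changes of 1.5, 2 and 4-fold for mislocalized IntS11 at 2.5 h over 8804 genes, and 6.75% of its calls were false. For the knockdown at 2.5 h, over 9681 genes, it recovered 44.8%, 71.6% and 84.8%, with 6.29% false. In these simulations only a small set of genes differed, equally up and down, and all others were equal between the groups. The real comparisons had 30.1% of rows called higher and 53.2% lower with mislocalized IntS11, and 39.7% and 36.0% in the knockdown. The simulated rates therefore cannot be carried over to them.

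The members and gene lists were chosen with earlier results of these data known. All members are described, and copies are named where they hold 10% or more of their class or carry a result. Symbols were matched for 16498 of 16680 identifiers, and positions of 29 of the 30 members come from the Ensembl 115 BDGP6 annotation. LSm8 and Sf3b1 were not matched. Intervals (95%) and floors (3 counts) cover counting error only.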

Additional observations from a re-analysis of the deposited data

Results flagged for a closer look

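In the IntS11 line the difference from WT was further from 0 at 2.5 h than at 0 h for 4 classes by the test of the interaction, by -1.70 for U1, -0.72 for U11, -1.29 for U12 and -1.29 for U2 on the log2 scale. That of U11 became -0.33 and was not called with total counts. The knockdown's rise of U12 was smaller at 2.5 h than at 0 h, by -0.66, or by -0.39 and not called with total counts. With amanitin the differences of U1 and U12 moved by -0.92 (adjusted p = 0.0122) and -1.13 (adjusted p = 5.51e-06, edgeR) from 1 to 2.5 h, and that of U1 was not called without replicate 2 of amanitin at 2.5 h or replicate 1 of the controls at 1 or 2.5 h (-0.51 to -0.83). Mutant larvae had a larger deficit at 72 h than at 24 h, by -1.17 for U1, -2.16 for U11 and -1.69 for U12, that of U1 being -0.88 and not called without replicate 1 of the mutant at 24 h.

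Between the mislocalized lines the effects differed for U11 at 0 h, by -1.11, for U12 at 0, 1 and 2.5 h, by -2.68, -1.89 and -1.66, and for U1 at 2.5 h, by 1.32, as IntS9 minus IntS11. The cause of these differences was not tested.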

How the results depend on the processing

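The class differences between IntS11 knockdown and WT, 9 called, were called in the same direction under each alternative and with each library left out. In the IntS11 line 10 of 11 and in the IntS9 line 11 of 12 called class differences were too. The exceptions were U1 at 0 h, which read from its most abundant copy alone was -0.70 and -0.96 and not called. Fewer held in larvae, 5 of 8, and in the rescue experiment, 17 of 25. In these tallies, reading the most abundant copy alone could not alter the counts of U11 or U12, each a single row. Leaving out U2:34ABa could alter only those of U2. Among values called on either side the sign turned for 2, both from 1 to 2.5 h in WT of the rescue experiment with effective length as an offset, added after seeing the data: the U2 sum went to 0.40 and U2:34ABa to 0.21. Values called on neither side turned under other settings, among them U2 with amanitin at 2.5 h, at 0.11 without replicate 1 of the controls.

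Counts of copies called moved by over 1.5 times as follows, and the cause was not tested. DESeq2 gave 3 for IntS11 WT from 0 to 1 h (RLE scaling also 3), 7 for IntS9 WT and 11 for amanitin controls from 1 to 2.5 h, 3 for WT larvae from 24 to 48 h, 8 and 2 for E203Q against the mislocalized line at 1 and 2.5 h, and 8 for Flag IntS11 WT against it at 1 h. The length offset gave 4 for E203Q against the mislocalized line at 2.5 h and 8 for rescue WT over time. No filter gave 6 and 2 for knockdown and IntS9 WT from 0 to 1 h, 8 and 12 for amanitin at 1 and 2.5 h, 6 and 12 over time in treated and control embryos, and 2 for E203Q at 2.5 h. Fitting the groups compared alone gave 8 for knockdown WT from 0 to 1 h, 4 for amanitin at 1 h and 1 over time in treated embryos, 4 for larvae at 24 h, 11 for WT larvae from 24 to 48 h and 3 for E203Q at 2.5 h. Scaling by total counts gave 3 for amanitin at 1 h, 2 for WT larvae from 24 to 48 h and 1 for E203Q at 1 h.

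With each library left out the counts ranged from 2 to 7 for knockdown WT from 1 to 2.5 h, 1 to 7 for IntS11 WT from 0 to 1 h, 2 to 9 for IntS9 WT from 1 to 2.5 h, 0 to 1 and 4 to 12 for amanitin at 1 and 2.5 h, 1 to 12 for its controls over time, 3 to 4 for larvae at 48 h, 2 to 6 for WT larvae from 24 to 48 h, 1 to 7 for E203Q and 2 to 4 for Flag IntS11 WT against the mislocalized line at 1 h, and 3 to 8 for rescue WT over time. A lone library is there assumed to vary like the other groups. Same-numbered libraries deviated together with correlations of -0.24 to 0.39 over 33 comparisons, above 0.1 in 6 of them, and the labels give the numbers no shared source, so they were not taken to pair the samples. Among the mislocalized and Flag lines at 1 h the correlations were 0.18 to 0.32. With the replicate number as a block the count was 3 for larvae at 48 h, 8 and 2 for E203Q at 1 and 2.5 h and 8 for Flag IntS11 WT at 1 h against the mislocalized line, and 311 of 315 class and copy results kept their direction and call.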
